A study of Homo sapiens with 4 samples.

Results

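The genes described here carry prostaglandin synthesis, inactivation and sensing: the phospholipase gene PLA2G4A, the cyclooxygenase genes PTGS2 and PTGS1, the prostaglandin E synthase genes PTGES, PTGES2 and PTGES3, the receptor genes PTGER2 and PTGER4, and the inactivating enzyme genes HPGD and PTGR1. They are 10 genes by name, against 18336 genes with a probe of their own on the array. PTGS2 was chosen because its level differed between the groups in these same arrays, and the others were added for their place in its pathway with those results known. The differences of these 10 genes are therefore given as a description, with no test. Probes whose platform annotation names 1 gene were used, which gave 12 probes for 9 of the genes; PTGES3 was not analysed here.

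The arrays measured DLD-1 cells, a widely used line from a human colorectal adenocarcinoma. The arrays labelled HMGA2 came from cells stably transfected with a tGFP-tagged pCMV6-HMGA2 plasmid, and the arrays labelled vector from cells carrying pCMV6-AC-GFP; pCMV6 plasmids drive expression from a cytomegalovirus promoter. Both lines were otherwise untreated, had been selected as stable clones in G418 at 1 mg/mL and were grown in it at 0.5 mg/mL, so that differences between clones and effects of the HMGA2 plasmid cannot be told apart. Each group has 2 single-colour arrays, 4 in all, and nothing in the labels says that they came from separate cultures, so errors measure only the spread between these arrays, which may be technical.

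Prostaglandin synthesis starts when cytosolic phospholipase A2, the product of PLA2G4A, releases arachidonic acid from membranes. A cyclooxygenase turns it into prostaglandin H2, PTGS1 being present in many tissues and PTGS2 being the inducible enzyme that is raised in many colorectal tumours and blocked by aspirin-like drugs. Prostaglandin E synthases then make prostaglandin E2, which acts on EP receptors at the cell surface; EP2 (PTGER2) and EP4 (PTGER4) raise cyclic AMP. HPGD oxidises prostaglandin E2 to an inactive keto form, and PTGR1 reduces that product further and also inactivates leukotriene B4.

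PTGS2 and PLA2G4A, the genes that feed the pathway, were the lowest of the set on the arrays labelled HMGA2 relative to those labelled vector, and they are neighbours on chromosome 1. The sequences before their annotated starts are shown because these genes shifted together, beside those of PTGR1, which was also lower, and PTGES, which was higher. Each window holds the 250 bases before the start on its own strand, from RefSeq on build GRCh38.p14, at chr1:186680424-186680673 (minus strand) for PTGS2, chr1:186828699-186828948 (plus strand) for PLA2G4A, chr9:111599432-111599681 (minus strand) for PTGR1 and chr9:129753043-129753292 (minus strand) for PTGES. Capitals mark matches on either strand to 3 motifs. The first is TATAAA, the core promoter element that binds TBP. The second is the core of a cyclic AMP response element, spelled TGACG. The last is an A/T-only motif of the kind that AT-hook proteins such as HMGA2 can bind, spelled AATATT.
PTGS2: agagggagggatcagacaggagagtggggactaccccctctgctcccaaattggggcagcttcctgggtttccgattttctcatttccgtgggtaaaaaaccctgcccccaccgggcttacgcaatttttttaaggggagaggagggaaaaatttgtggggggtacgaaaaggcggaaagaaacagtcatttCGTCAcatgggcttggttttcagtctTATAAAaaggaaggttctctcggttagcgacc
PLA2G4A: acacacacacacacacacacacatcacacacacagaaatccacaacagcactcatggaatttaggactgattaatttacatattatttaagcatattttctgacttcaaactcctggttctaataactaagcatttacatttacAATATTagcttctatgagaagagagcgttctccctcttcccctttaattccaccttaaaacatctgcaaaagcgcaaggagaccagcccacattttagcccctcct
PTGR1: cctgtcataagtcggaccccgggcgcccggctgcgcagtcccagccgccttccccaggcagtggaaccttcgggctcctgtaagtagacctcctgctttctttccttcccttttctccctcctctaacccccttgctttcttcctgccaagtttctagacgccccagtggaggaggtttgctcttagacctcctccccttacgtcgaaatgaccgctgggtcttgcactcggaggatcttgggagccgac
PTGES: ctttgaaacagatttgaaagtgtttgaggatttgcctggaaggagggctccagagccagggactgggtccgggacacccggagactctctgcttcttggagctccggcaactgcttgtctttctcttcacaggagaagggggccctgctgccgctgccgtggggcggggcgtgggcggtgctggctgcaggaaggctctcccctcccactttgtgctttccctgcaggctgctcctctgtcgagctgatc
The PTGS2 window held 1 match to the first, beginning 32 bases before the start, and 1 response element core on the opposite strand, beginning 58 bases before it. The PLA2G4A window held neither of these and had 1 A/T-only motif, beginning 106 bases before the start. The windows of PTGR1 and PTGES held no match to any of the 3. Of 35114 such windows in the RefSeq table, 10.7% had the first motif, 21.2% the response element core and 6.41% the A/T-only motif, both strands searched; no matches to these motifs overlapped each other in the windows shown. The looser E-box CANNTG, which reads the same on both strands, had 1 match each in PTGS2, PLA2G4A and PTGES and 0 in PTGR1, and 61.8% of windows had one. GC content was 50.4% for PTGS2 and 38.8% for PLA2G4A, with 32.8% and 10.8% of windows lower, and the longest run of A and T was 11 bases in both. A match is a stretch of letters and says nothing of binding.

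By neither of its probes was HMGA2 itself higher on both arrays labelled HMGA2 than on both labelled vector. Its brighter probe read 3917 and 4369 on the arrays labelled HMGA2, against 5576 and 5270 on those labelled vector (log2 difference -0.39, SE 0.09, limma adjusted p = 0.0186). The other read 4596 and 3466 on the arrays labelled HMGA2, against 2728 and 3493 on those labelled vector (log2 difference 0.37, adjusted p = 0.129 in a limma fit of every probe). On that probe the groups overlapped. The sources used here do not say where these probes lie relative to the transgene, so every direction below rests on the array labels. Median intensity over all probes ran from 607 to 649 on the arrays labelled HMGA2 and from 698 to 767 on those labelled vector. Across the 13752 genes tested, log2 values correlated at 0.992 and 0.988 within the groups and at 0.957 to 0.958 between them. The colorectal epithelial markers fixed for the check were all above the dimness limit (8 of 8 measured, EPCAM and CDH1 among them), and their summed intensity was 565646 to 567623 on the arrays labelled HMGA2 and 478462 to 501215 on those labelled vector. That sum is set by the brightest probes, and single markers went both ways: EPCAM (0.26 log2), CDH1 (0.26), CLDN4 (0.58) and VIL1 (1.23) rose with limma, KRT8 (-2.42), CDX2 (-0.62) and LGALS4 (-0.76) fell, and KRT19 stood at 0.14, passing upward after quantile normalization. Of the 5 leukocyte markers 2 were above that limit: CD68 rose (0.62 log2, adjusted p = 0.0225) and CD14 fell (-0.69, adjusted p = 0.00185). Sums over all 5, dim ones included, were 4403 to 5125 on the arrays labelled HMGA2 and 5918 to 6287 on those labelled vector. The pan-leukocyte gene PTPRC read 31 to 116 on the arrays labelled HMGA2 and 25 to 58 on those labelled vector. For fibroblasts 3 of 6 markers were above the dimness limit. Sums over all 6 were 4274 to 5017 on the arrays labelled HMGA2 and 4818 to 6050 on those labelled vector. For endothelium 3 of 3 were above it, with sums of 1777 to 1779 and, on the arrays labelled vector, 1857 to 1959. The 1 measured mast cell marker, CPA3, was below it.

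The arachidonate-releasing enzyme gene was lower on the arrays labelled HMGA2. PLA2G4A read 250 and 213 on the arrays labelled HMGA2, against 1792 and 1591 on those labelled vector. The groups lay far apart. The log2 difference was -2.87 (SE 0.16), or 7.32-fold lower on the arrays labelled HMGA2. Its mean there, 7.85 log2, is just under the dimness limit of 7.87 log2 (an intensity of 234), below which genes were not tested, so the fold is uncertain at that end. In these bulk samples, fewer cells making a transcript and less of it per cell cannot be told apart.

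The inducible cyclooxygenase gene was lower on the arrays labelled HMGA2. PTGS2 read 272 and 271 on the arrays labelled HMGA2, against 2446 and 2146 on those labelled vector. Both replicates of each group agreed closely and the groups did not overlap. The means were 272 ± 0.71 on the arrays labelled HMGA2 and 2296 ± 212 on those labelled vector (SD, n = 2 each), a log2 difference of -3.08 (SE 0.14), or 8.44-fold lower on the arrays labelled HMGA2. By rank on each array, which no scaling of the array changes, PTGS2 stood at the 32.2 and 36.2 percentiles of all probes on the arrays labelled HMGA2, against the 68.7 and 66.4 percentiles on those labelled vector. It had the 22nd lowest log2 difference of the 13752 genes, and PLA2G4A the 31st.

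PTGS1 could not be compared. It read 97 and 23 on the arrays labelled HMGA2, against 13 and 30 on those labelled vector, among the lowest 4.05% of probes on every array. These values overlap, lie below the dimness limit and were not tested. The lowest value of any probe was 62 on the first array labelled HMGA2 and at most 0 on each of the others, so the 97 read there stands close to that array's floor.

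**Figure D1:**
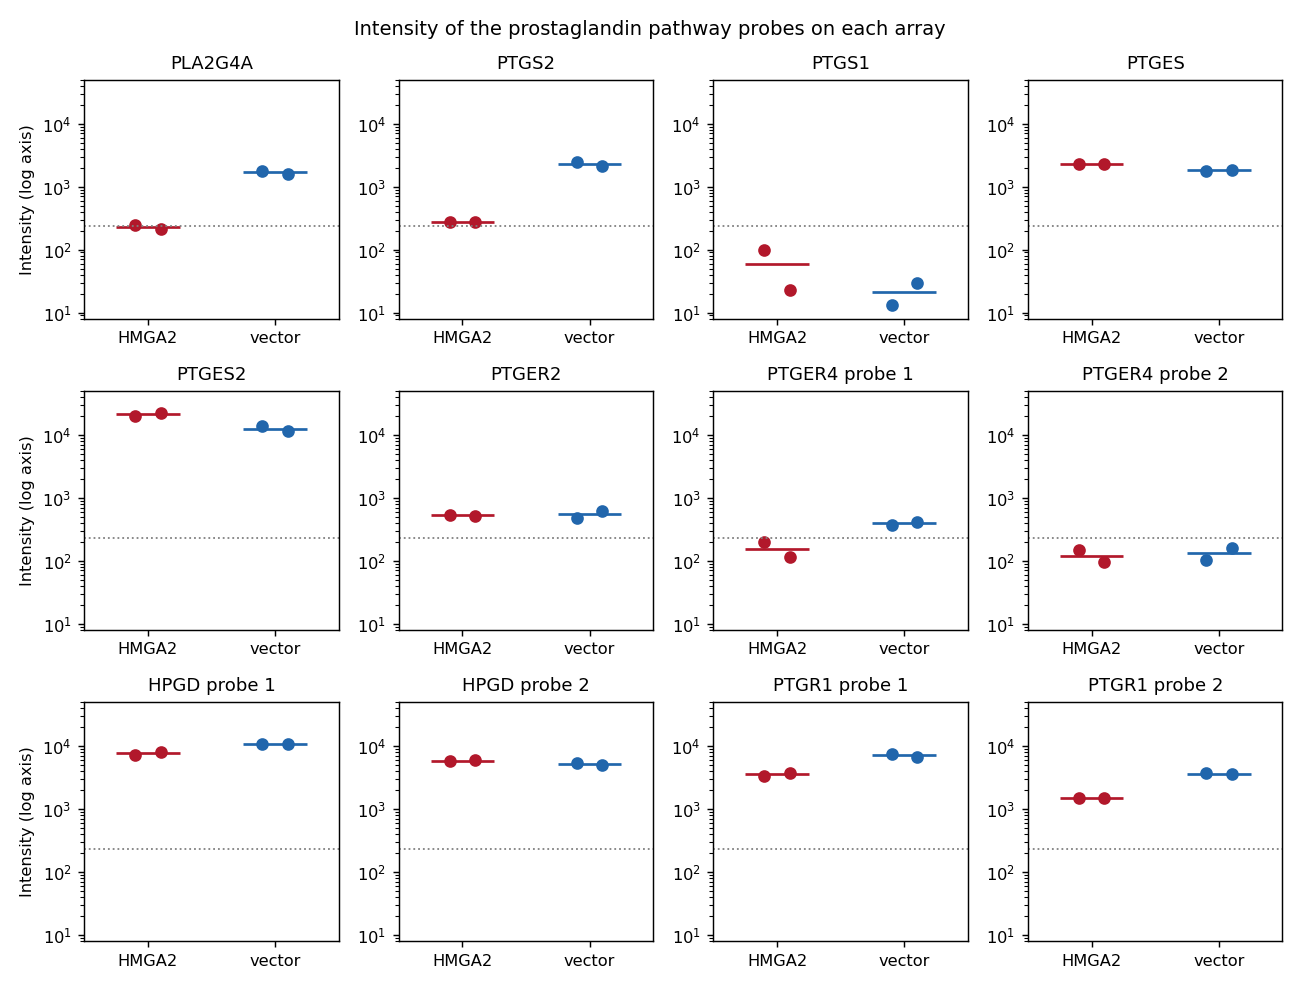
Intensity (arbitrary units, log axis) of the 12 probes on each array, 1 panel per probe; points are arrays, bars are means of 2 arrays labelled HMGA2 (red, left) and 2 labelled vector (blue, right), and the dotted line is the dimness limit at 234. PTGS2 and PLA2G4A sit near that line on the arrays labelled HMGA2 and at 1591 or more on those labelled vector; levels of different probes are not comparable.

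The prostaglandin E synthases ran the other way. PTGES, the inducible microsomal synthase that is often coupled to PTGS2, read 2313 and 2285 on the arrays labelled HMGA2, against 1793 and 1822 on those labelled vector. The difference was small but every array labelled HMGA2 was higher, at 0.35 log2 (SE 0.09), or 1.27-fold. PTGES2, a membrane-associated synthase found at the Golgi, read 19731 and 22449 on the arrays labelled HMGA2, against 13672 and 11554 on those labelled vector. These groups did not overlap, and PTGES2 was 0.74 log2 (SE 0.11) higher, or 1.68-fold, on the arrays labelled HMGA2.

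The receptors differed from each other. PTGER2 read 532 and 518 on the arrays labelled HMGA2, against 482 and 627 on those labelled vector. The values overlapped, the log2 difference was -0.07 (SE 0.19), and its sign turned after quantile normalization (0.13). PTGER4 read 196 and 116 on the arrays labelled HMGA2 with its brighter probe, against 367 and 420 on those labelled vector, a log2 difference of -1.38 (SE 0.34). Its other probe read 147 and 95 on the arrays labelled HMGA2, against 103 and 161 on those labelled vector (log2 difference -0.12). Both PTGER4 probes were below the dimness limit on the arrays labelled HMGA2, and the probes disagree on whether the groups overlap.

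Inactivating enzymes were lower or inconsistent. PTGR1 read 3359 and 3717 on the arrays labelled HMGA2 with its brighter probe, against 7535 and 6749 on those labelled vector, a log2 difference of -1.01 (SE 0.10). Its other probe read 1468 and 1477 on the arrays labelled HMGA2, against 3726 and 3529 on those labelled vector, a log2 difference of -1.30. Both PTGR1 probes were thus lower on every array labelled HMGA2, by 2.02-fold and 2.46-fold. HPGD, the main enzyme of prostaglandin E2 breakdown and a gene often lost in colorectal cancer, read 7280 and 8126 on the arrays labelled HMGA2 with its brighter probe, against 10896 and 10586 on those labelled vector (log2 difference -0.48, SE 0.09). With the other probe it read 5767 and 5939 on the arrays labelled HMGA2, against 5457 and 4905 on those labelled vector (log2 difference 0.18). The HPGD probes point in opposite directions, each without overlap, so no single direction describes the gene.

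Among the 12 probes, 6 were lower on every array labelled HMGA2 than on any labelled vector, 3 were higher in the same sense and 3 overlapped. Over all 24740 single-gene probes, 59.1% had no overlap, 34.2% being lower and 24.9% higher. With limma at an adjusted p of 0.05, 5994 of 13752 genes (43.6%) were called, 14.9% higher and 28.7% lower. Of the 8 pathway genes above the dimness limit by mean level, 5 fell on the lower side of that rule, 2 on the higher side and PTGER2 on neither. Among the 5, PLA2G4A (7.85 log2) and PTGER4 (7.24 log2) had means under that limit on the arrays labelled HMGA2. These genes were tested because of their levels on the arrays labelled vector (10.72 and 8.62 log2). PTGES and PTGER4 no longer passed the limma rule under a block on replicate number or at an adjusted p of 0.01. PTGES also no longer passed with any 1 array left out, where its log2 difference was 0.34 to 0.36. HPGD no longer passed with array medians subtracted or with the mean of a gene's probes. Since the genes were chosen on this contrast, these counts carry no weight as evidence. The median log2 difference over the 9 genes with a probe was -0.48, and over the 13752 genes tested it was -0.09. These 2 medians are not on a like footing, because the 9 include PTGS1, which was dim and not tested. The median of the 9 is the value of the brighter HPGD probe, and it was -0.15 with the mean of each gene's probes and -0.26 with array medians subtracted.

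**Figure D2:**
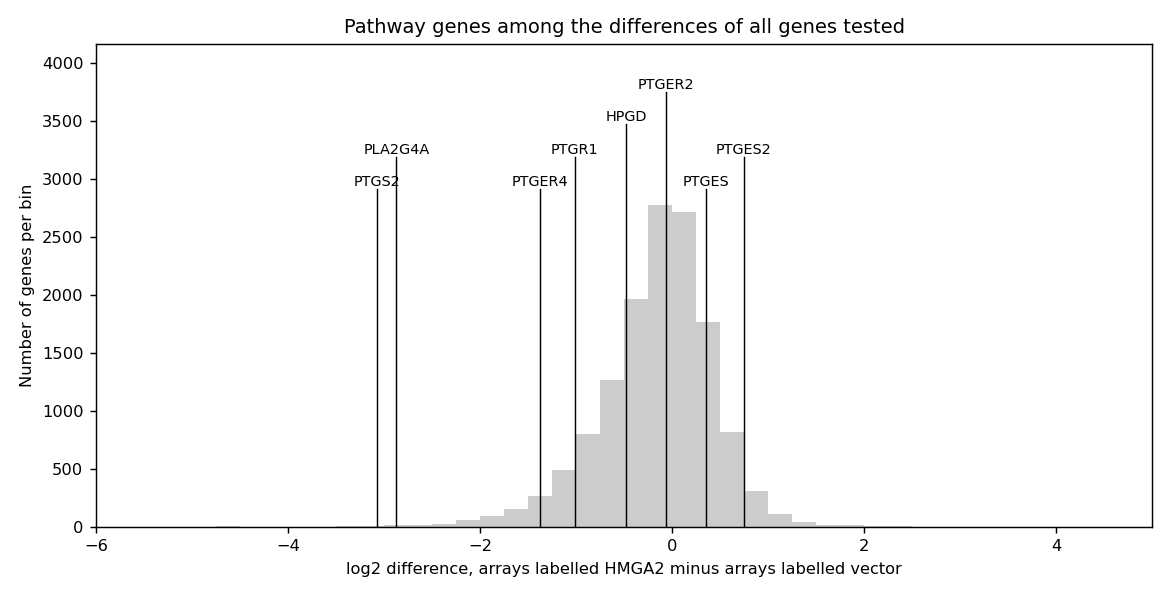
Number of genes (y axis) per 0.25 bin of log2 difference, arrays labelled HMGA2 minus arrays labelled vector (x axis), for the 13752 genes tested; vertical lines mark the 8 pathway genes above the dimness limit. PTGS2 (-3.08) and PLA2G4A (-2.87) lie in the far lower tail, and PTGER2 (-0.07) in the centre.

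The size of these differences depended on how the arrays were scaled, the direction much less. Quantile normalization moved the median over all genes by 0.18 log2, to 0.09, and raised the share of called genes that were higher to 55.2%, against 34.2% as deposited. Under quantile normalization PTGS2 stood at -2.94 and PLA2G4A at -2.73, while PTGES was at 0.59 and PTGES2 at 0.85. Normexp background correction before that step gave -2.78 for PTGS2 (6.85-fold lower on the arrays labelled HMGA2) and -2.54 for PLA2G4A (5.83-fold lower). PTGR1 was at -0.82 and HPGD at -0.35 after quantile normalization, by their brighter probes.

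**Figure D3:**
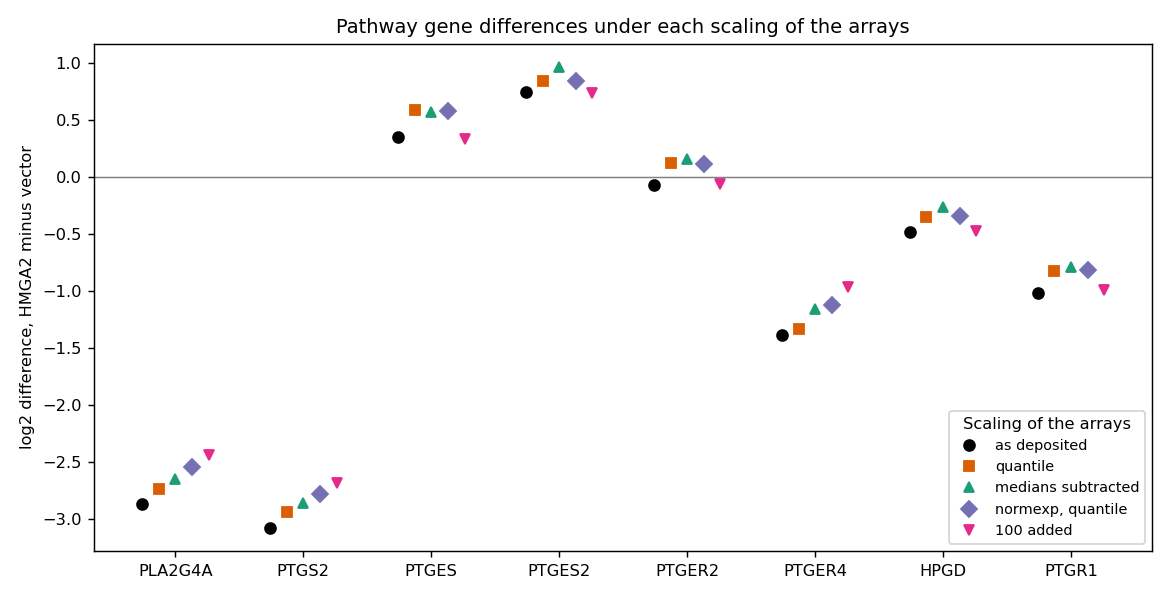
log2 difference of 8 pathway genes, arrays labelled HMGA2 minus arrays labelled vector (y axis), by the brightest probe under 5 scalings of the arrays (symbols). PTGS2 runs from -3.08 to -2.69 and PLA2G4A from -2.87 to -2.43; PTGER2 is the gene among the 8 whose sign turns.

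PTGS2 and PLA2G4A lie next to each other on chromosome 1, transcribed away from each other with 149 kb between their starts in RefSeq on GRCh38.p14. The 3 protein-coding genes on the other side of PTGS2 differed by at most 0.44 log2 as deposited. TPR, a nuclear pore protein gene, read 25879 and 25219 on the arrays labelled HMGA2, against 22663 and 22524 on those labelled vector (log2 0.18, limma adjusted p = 0.0916). ODR4 fell by 0.44 log2 (adjusted p = 0.0132, but 0.117 after quantile normalization and 0.0555 without vector replicate 2) and PDC, the phosducin gene, was at 0.27 (adjusted p = 0.164). After quantile normalization TPR (0.25, adjusted p = 0.0377) and PDC (0.51, adjusted p = 0.0244) passed upward. On the far side of PLA2G4A, BRINP3 read 675 and 637 on the arrays labelled HMGA2, against 1481 and 1142 on those labelled vector, and fell by 0.99 log2 (SE 0.16, adjusted p = 0.00416). RGS18, a regulator of G-protein signalling, had a mean level under the dimness limit and was not tested. It read 282 and 185 on the arrays labelled HMGA2, against 103 and 141 on those labelled vector (log2 difference 0.92). The largest differences in this stretch of 7 genes were those of PTGS2 and PLA2G4A, both lower on the arrays labelled HMGA2. BRINP3 had a smaller one in the same direction, and the dim RGS18 one in the opposite direction.

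**Figure D4:**
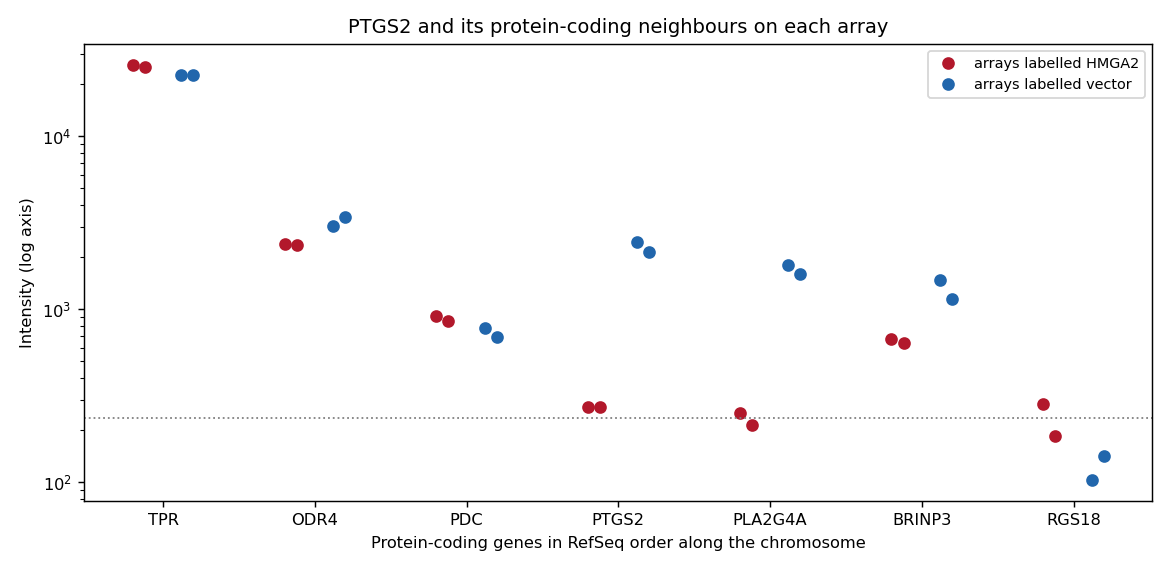
Intensity (arbitrary units, log axis) of PTGS2 and the 3 protein-coding genes on either side of it, in RefSeq order; red points are the 2 arrays labelled HMGA2 (left of each pair), blue points the 2 labelled vector, and the dotted line is the dimness limit. The gap between the groups is wide at PTGS2 and PLA2G4A, narrower at BRINP3 and small at TPR, ODR4 and PDC. At RGS18 the arrays labelled HMGA2 are the higher ones, with points near or under the dotted line.

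The genes whose pattern over the 4 arrays was most like that of PTGS2, by Euclidean distance between log2 values centred on each gene's own mean, were PDP1 (distance 0.115 log2), MAP2 (0.13), AGR2 (0.145), CD24 (0.163) and STEAP1 (0.201). PDP1, a phosphatase that activates pyruvate dehydrogenase, read 1739 and 1825 on the arrays labelled HMGA2, against 17322 and 15005 on those labelled vector. STEAP1, a membrane protein gene, read 252 and 244 on the arrays labelled HMGA2, against 1939 and 1715 on those labelled vector. With 4 arrays in 2 groups, likeness of this kind amounts to a difference of the same size with the same spread between replicates.

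Other genes of prostanoid supply, signalling and control were tested, in lists drawn up with earlier results of these data known. Of 140 such genes above the dimness limit, 26 (18.6%) were higher and 34 (24.3%) lower, against 14.9% and 28.7% of all genes. After quantile normalization 49 were higher and 29 lower, against 28% and 22.7% of all genes.

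Genes of arachidonate release and handling moved both ways, 5 of 25 higher (20%) and 6 lower (24%), against 14.9% and 28.7% of all genes. Their median log2 difference was 0.02. ANXA1, the glucocorticoid-induced protein known as an inhibitor of phospholipase A2, read 26816 and 20869 on the arrays labelled HMGA2, against 134510 and 128052 on those labelled vector. ANXA1 thus lay on the same side as PLA2G4A and fell by 2.47 log2 (SE 0.13, adjusted p = 0.00012). The secreted phospholipase gene PLA2G5 read 25387 and 24239 on the arrays labelled HMGA2, against 82076 and 80825 on those labelled vector, and fell by 1.71 log2 (adjusted p = 7.93e-05). PLA2G1B, the pancreatic-type secreted enzyme, fell by 1.03 log2 (adjusted p = 0.00131). PLA2G2E rose by 1.30 log2 (SE 0.34, adjusted p = 0.0241), but its arrays labelled HMGA2 read 3462 and 7663 and so disagreed with each other; without an intensity trend its adjusted p was 0.0596.

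The other prostanoid synthases and metabolising enzymes had 1 of 10 higher (10%) and 3 lower (30%), against 14.9% and 28.7% of all genes. AKR1C3, which reduces prostaglandin D2 and H2 to F-type prostaglandins, read 618 and 360 on the arrays labelled HMGA2, against 3220 and 2876 on those labelled vector, and fell by 2.69 log2 (adjusted p = 0.000586); its other probe was dim on every array. PRXL2B, also called prostamide and prostaglandin F synthase, read 897 and 793 on the arrays labelled HMGA2, against 2016 and 2048 on those labelled vector, and fell by 1.27 log2 (adjusted p = 0.00051). PTGR2, a further reductase of keto-prostaglandins, fell by 0.61 log2 (adjusted p = 0.011), on the same side as PTGR1. For CBR1, a carbonyl reductase that can turn prostaglandin E2 into F2-alpha, the brighter probe rose by 0.43 log2 (adjusted p = 0.0405) and the other fell by 0.31 (adjusted p = 0.029 in the fit of every probe). The CBR1 call was lost without HMGA2 replicate 2 (adjusted p = 0.112) or vector replicate 2 (0.111). PTGDS (0.27), HPGDS (-0.26), PTGIS (0.16), AKR1C1 (-0.26), CBR3 (0.11) and PTGR3 (0.27) did not pass as deposited, and PTGDS and PTGR3 passed upward after quantile normalization. The other PTGIS probe was at -0.83, with 406 and 280 on the arrays labelled HMGA2, against 806 and 447 on those labelled vector (adjusted p = 0.0788 in the fit of every probe), so the PTGIS probes point in opposite directions. TBXAS1, the thromboxane synthase gene, and AKR1C2 were dim and not tested.

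No other prostanoid receptor passed with limma as deposited (0 of 5 above the dimness limit), against 14.9% of all genes higher and 28.7% lower. PTGFR and PTGIR were dim and not tested. The log2 differences were 0.28 for PTGER1 (EP1, adjusted p = 0.123), -0.08 for PTGER3 (EP3), 0.57 for PTGDR2 (adjusted p = 0.154), -0.75 for the thromboxane receptor TBXA2R (adjusted p = 0.0921) and close to 0 for PTGDR. The other TBXA2R probe was at 0.46, and the other PTGER3 probe above the limit at 0.11. After quantile normalization PTGER1 and PTGDR2 passed upward. Among transporters, SLCO3A1, which carries prostaglandins, fell by 0.95 log2 by its brightest probe (adjusted p = 0.0365), 1 of 5 tested. The SLCO3A1 call was lost without HMGA2 replicate 2 (log2 difference -0.69) or vector replicate 2 (-0.78). Its mean was under the dimness limit on the arrays labelled HMGA2 (7.77 log2). It was tested because of its level on those labelled vector (8.72 log2). The other SLCO3A1 probes, at -0.43 and 0.13, were dim, and on each the groups overlapped. The efflux pump gene ABCC4 stood at 0.43 by its brighter probe (adjusted p = 0.051). The other ABCC4 probe was at -0.53, with 242 and 182 on the arrays labelled HMGA2, against 346 and 266 on those labelled vector (adjusted p = 0.209 in the fit of every probe), so its probes point in opposite directions.

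Downstream of EP2 and EP4, the cyclic AMP signalling genes split, 8 of 26 higher (30.8%) and 6 lower (23.1%), against 14.9% and 28.7% of all genes. PRKAR1A, a regulatory subunit of protein kinase A, read 16016 and 15737 on the arrays labelled HMGA2, against 43857 and 42815 on those labelled vector, and fell by 1.45 log2 (adjusted p = 0.00011). The scaffold gene AKAP12 fell by 1.07 log2 (adjusted p = 0.00192, but 0.0637 with the mean of its probes). Of the catalytic subunit genes, PRKACA rose by 0.73 (adjusted p = 0.00771) and PRKACB fell by 0.72 by its brightest probe (adjusted p = 0.0223). The other PRKACB probes were at 0.01 and 0.09. The regulatory subunit genes PRKAR1B (0.48 by its brightest probe, adjusted p = 0.00474) and PRKAR2A (0.28, adjusted p = 0.0327) rose, unlike PRKAR1A. The other PRKAR1B probes were at -0.33 and 0.09. CREM, a transcription factor of the cyclic AMP response, rose by 0.76 log2 by its brighter probe (adjusted p = 0.00103); its other probe was at 0.16 and did not pass. Of 12 known cyclic AMP and CREB target genes 4 rose (33.3%) and 3 fell (25%), against the same shares of all genes. CREM is counted in both lists. DUSP1, a phosphatase of MAP kinases, read 3909 and 4102 on the arrays labelled HMGA2, against 2301 and 2351 on those labelled vector, and rose by 0.78 log2 (adjusted p = 0.00103). IRS2 (-1.09), RGS2 (-1.03) and VEGFA (-0.76) fell; the other VEGFA probe was at -0.06.

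Known regulators of PTGS2 transcription had 7 of 27 higher (25.9%) and 5 lower (18.5%), against 14.9% and 28.7% of all genes, with a median of 0.08. JUNB, an AP-1 subunit, read 1187 and 941 on the arrays labelled HMGA2, against 3344 and 3426 on those labelled vector, and fell by 1.68 log2 (adjusted p = 0.000365). JUN, another AP-1 subunit, read 18300 and 17817 on the arrays labelled HMGA2, against 10601 and 9825 on those labelled vector, and rose by 0.82 log2 (adjusted p = 0.000682). ATF3 (1.06) and the NF-kB subunit gene RELB (0.83) rose, RELB losing its call without HMGA2 replicate 2 (adjusted p = 0.0609). The other NF-kB genes were split: RELA fell by 0.56 log2 (adjusted p = 0.0022), NFKB2 rose by 0.78 by its brighter probe (adjusted p = 0.00222), and NFKB1 stood at 0.06. Besides JUNB and RELA, the 5 lower genes were TCF7L2 (-0.77), CTNNB1 (-0.76) and ATF2 (-0.67 by its brightest probe), against the 7 that were higher. The other ATF2 probe above the dimness limit was at -0.05 (adjusted p = 0.7 in the fit of every probe). After quantile normalization 14 of the 27 were higher and 5 lower, against 28% and 22.7% of all genes.

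Genes that act on PTGS2 mRNA decay and translation had 1 of 13 higher (7.69%) and 8 lower (61.5%), against 14.9% and 28.7% of all genes, with a median of -0.62. RBM3, a cold-inducible RNA-binding protein known to stabilise PTGS2 mRNA, read 2152 and 2424 on the arrays labelled HMGA2, against 6079 and 6605 on those labelled vector, and fell by 1.47 log2 (adjusted p = 0.000252). TIA1, which silences PTGS2 translation, fell on both probes, by 1.35 log2 (adjusted p = 0.000421) and by 1.80. The translation inhibitor gene PDCD4 fell by 1.29 log2 (adjusted p = 0.00025). ZFP36L2, of the family that promotes decay of AU-rich mRNAs, fell by 1.16 log2 on its brighter probe (adjusted p = 0.000835), whereas its other probe was at 0.04. KHSRP, an mRNA decay factor and the gene that was higher, rose by 0.78 log2 (adjusted p = 0.00183), and ELAVL1, which stabilises AU-rich mRNAs, was at 0.12 by its brighter probe (adjusted p = 0.388) and at -0.20 by the other. The list thus holds stabilising and destabilising factors among its lower members. After quantile normalization 2 were higher and 7 lower, against 28% and 22.7% of all genes.

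**Figure D5:**
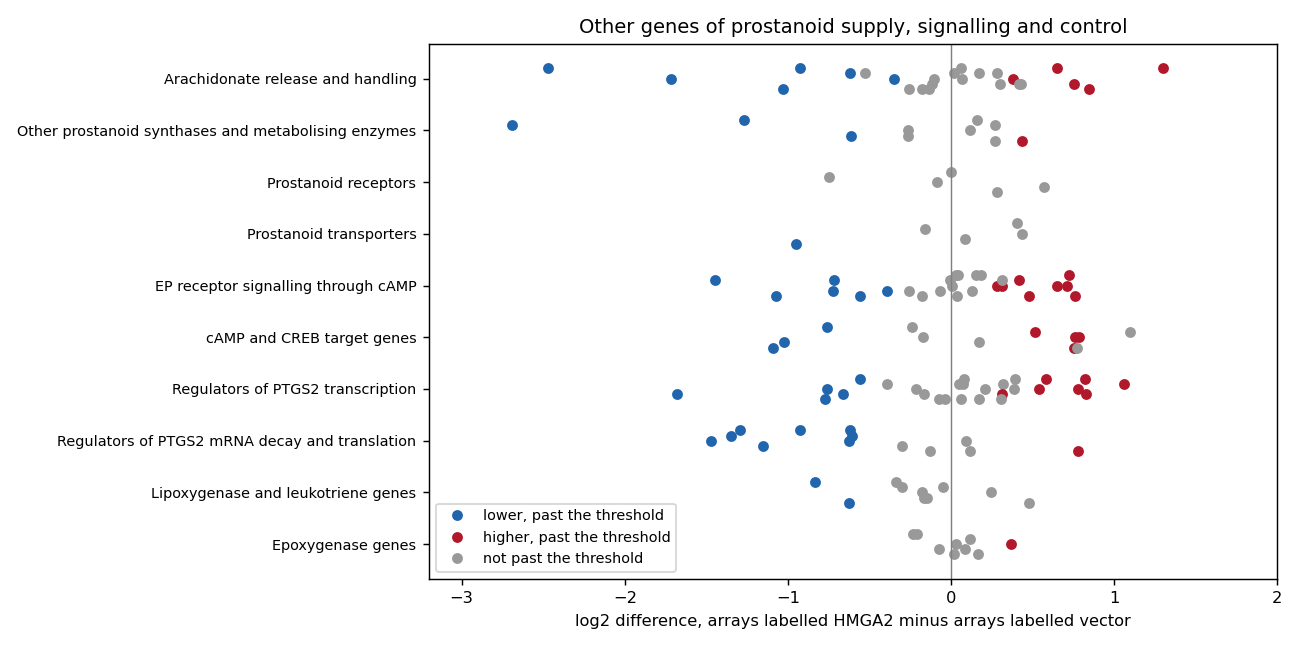
log2 difference, arrays labelled HMGA2 minus arrays labelled vector (x axis), of each tested gene in 10 lists (y axis, with a small vertical offset for legibility); red and blue points passed an adjusted p of 0.05 upward and downward, grey points did not. The list on PTGS2 mRNA decay and translation has 8 of 13 points lower and past the threshold, and the receptor list has 0 of 5 past it. Of all genes, 14.9% were higher and 28.7% lower.

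In the parallel arachidonate routes, of 10 tested lipoxygenase and leukotriene genes 0 rose and 2 fell (20%, against 28.7% of all genes): MGST2, which can make leukotriene C4, by 0.63 log2 (adjusted p = 0.00136) and ALOXE3 by 0.84 (adjusted p = 0.0414). The ALOXE3 call was lost without HMGA2 replicate 2 (adjusted p = 0.172), vector replicate 1 (0.0855) or vector replicate 2 (0.141). The main leukotriene gene ALOX5 was below the dimness limit, at 196 and 128 on the arrays labelled HMGA2 and 130 and 179 on those labelled vector. DPEP1, of the same list, had a mean level under that limit and was left out of the count. Yet it read 475 and 447 on the arrays labelled HMGA2, against 76 and 122 on those labelled vector. Its log2 difference was 2.26, with an adjusted p of 0.00221 in the limma fit of every probe. Of 9 epoxygenase genes 1 rose (11.1%, against 14.9% of all genes), CYP4F12 by 0.37 log2 (adjusted p = 0.0485), and 0 fell. The CYP4F12 call was lost without HMGA2 replicate 1 (adjusted p = 0.149), HMGA2 replicate 2 (0.0911) or vector replicate 1 (0.231).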

How the data were processed

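The deposited values are linear intensity readings, 1 for each of 31741 probes on each array; the sources used here do not say which scanner, background correction or normalization the authors applied to the intensity values. Total RNA was amplified to antisense RNA and coupled to Cy5, per the labels' protocols. By the platform annotation 24740 probes have 1 gene, 977 have several and 6024 have none; 1948 symbols were updated through RefSeq (GRCh38.p14), and 99.7% were found there. Values under 1 were set to 1 and log2 was taken without further normalization. The brightest probe stood for each of 18336 genes, and genes whose mean level lay under the 25th percentile (7.87 log2, an intensity of 234) were left out, leaving 13752. Groups and replicate numbers come from the sample titles.

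Differences were fitted in R 4.3.3 by limma 3.58.1 (lmFit and a trended eBayes), Benjamini-Hochberg adjusted, at a threshold of 0.05; every adjusted p is from limma. The fit was also run on data simulated with independent normal errors from its own variance model, which cannot show how it performs on these arrays. With 2 arrays in each group, the smallest two-sided p of an exact permutation test is 0.333. The members, gene lists and rules were chosen with earlier results of these data known. Named were all members, in each list up to 4 genes with the largest difference past the threshold, all prostanoid receptors and synthases above the dimness limit, the 3 protein-coding neighbours on either side of PTGS2 and the 5 genes nearest to it in pattern. KHSRP, ELAVL1, ALOX5, ABCC4, PTGFR, PTGIR, TBXAS1 and AKR1C2 were named after their values were seen. The same holds for DPEP1, PRKACB, PRKAR1B, PRKAR2A, RELA, NFKB1, NFKB2, TCF7L2, CTNNB1 and ATF2. Alternatives were other scalings, filters, probe rules and variance models, a block on replicate number, and leaving out each array. Precision is limited by the number of arrays.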

Additional observations from a re-analysis of the deposited data

How the results depend on the processing

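PTGS2 kept its direction under every alternative run: it stood at -2.94 after quantile normalization, -2.86 with array medians subtracted, -2.78 after normexp and quantile normalization, -2.69 with 100 added before log2, and between -3.17 and -2.98 with 1 array left out. The median over the 9 measured genes, the dim PTGS1 included, was -0.26 with array medians subtracted, -0.15 with the mean of a gene's probes, and -0.56 to -0.40 with 1 array left out. Genes called higher numbered 3844, 3715 and 3850 under quantile normalization, array medians and normexp with quantile, and 1037 at an adjusted p of 0.01; genes called lower numbered 2479 with array medians and 6348 with every probe as the unit. The pathway lists had 49, 49 and 50 genes higher under those 3 scalings and 13 at 0.01. With 1 array left out, 1656 to 1955 genes were higher and 3569 to 3678 lower, and 22 to 28 and 32 to 34 in the pathway lists. The replicate number may not pair the arrays: deviations from the group means of same-numbered arrays correlated at -0.197. With it as a replicate block 1819 genes were higher and 3510 lower; with the pairing crossed, added after seeing the data, 2590 and 4619. SLCO3A1, ALOXE3 and CYP4F12 also lost their calls under the block, with adjusted p of 0.13, 0.146 and 0.0826, AKAP12 (0.0637) and CBR1 (0.671) with the mean of their probes, and PLA2G2E (0.0596), CBR1 (0.086) and CYP4F12 (0.0693) without an intensity trend. The cause was not tested. Values near the dimness limit, as for PTGS2 and PLA2G4A on the arrays labelled HMGA2, limit the size of a fold.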
